A study of Mus musculus with 18 samples.

Results

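The genes described here are the myeloid fate transcription factors Spi1, Cebpa, Cebpb, Cebpd, Cebpe, Irf8, Gfi1 and Klf4, 8 of the 20275 genes in the deposited single-cell count matrix, taken by name and read in the hematopoietic cells only. Those cells are the 20982 of 56201 cells that came from sorted hematopoietic progenitors (HPs), and all 8 genes were present in the matrix. HPs were Lineage-Kit+ bone marrow cells of C57B6/J mice, pooled within a library, and the labels name no transgene or treatment for any group. There were 2 libraries at embryonic day (E) 16.5 and 1 library each at E18.5, at postnatal day (P) 0 and in adult mice. Each cell was assayed by droplet 3' RNA-Seq with antibody-derived tags (CITE-Seq), so that a level here is a count of unique molecular identifiers (UMIs) summed over the cells of a cluster and given per 1000000 UMIs of those cells (CPM). Clusters carry the codes that the study gave them, such as MyP for myeloid progenitors, Neu for neutrophils, Eos/Bas for eosinophils and basophils, Mono for monocytes, DC for dendritic cells and HSPC for hematopoietic stem and progenitor cells.

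As background, myeloid cells arise from multipotent progenitors through a small circuit of transcription factors. PU.1, the ETS factor made by Spi1, acts at the root of all myeloid lineages and is also used, at a lower dose, in B cells. The C/EBP factors are leucine zipper proteins with different stages of use: C/EBPα (Cebpa) opens the granulocyte and monocyte path, C/EBPε (Cebpe) drives late granulocyte maturation and secondary granule genes in neutrophils and eosinophils, and C/EBPβ and C/EBPδ (Cebpb and Cebpd) serve in mature and stimulated cells. Irf8 directs progenitors to monocytes and dendritic cells, the zinc finger repressor Gfi1 opposes it on the neutrophil side, and Klf4 acts with Irf8 in monocytes.

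The 8 genes lie on 7 mouse chromosomes in RefSeq's annotation of GRCm38.p6: Spi1 at chr2:91082374-91115759, Cebpb at chr2:167688915-167690432, Klf4 at chr4:55527137-55532475, Gfi1 at chr5:107716655-107725805, Cebpa at chr7:35119293-35121928, Irf8 at chr8:120736358-120756694, Cebpe at chr14:54710363-54712174 and Cebpd at chr16:15887286-15889545. The RefSeq promoter table held 7 promoters for 5 of them. The 60 bases before the outermost start site of each of these 5 genes are printed 5′ to 3′ on the gene's own strand, to show the annotated core promoters, with a TATAAA match in capitals.
Cebpa, chr7:35119233-35119292, plus strand: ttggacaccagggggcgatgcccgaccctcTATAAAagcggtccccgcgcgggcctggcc
Cebpb, chr2:167688855-167688914, plus strand: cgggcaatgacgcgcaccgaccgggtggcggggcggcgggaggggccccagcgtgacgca
Irf8, chr8:120736298-120736357, plus strand: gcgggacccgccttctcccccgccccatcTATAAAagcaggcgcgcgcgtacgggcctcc
Gfi1, chr5:107725806-107725865, minus strand: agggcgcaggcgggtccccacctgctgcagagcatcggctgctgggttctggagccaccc
Klf4, chr4:55532476-55532535, minus strand: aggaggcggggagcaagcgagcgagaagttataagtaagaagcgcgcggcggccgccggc
Of all 32851 promoter windows of 300 bases, 8.32% held TATAAA on the gene's own strand. The match began 30 bases before the start site of Cebpa and 31 bases before that of Irf8, and the third match was in Cebpb, 21 bases after its start. Both strands were also searched for TTGCNNAA, which C/EBP factors bind (10.8% of all windows, 1 of the 7 member windows, in Gfi1), AGGAAG, which ETS factors such as PU.1 bind (35.4% of all, 1 member window, in Gfi1), the IRF motif (3.44% of all, 0 member windows) and CCACNCCC for KLF factors (17.6% of all, 3 member windows, in Cebpb and Gfi1). These matches describe the letters of short windows and nothing more.

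The libraries held 560 and 4752 cells at E16.5, 3477 (E18.5), 6208 (P0) and 5985 (adult), with medians of 6747 (adult) to 23292 (E16.5 replicate 1) UMIs per cell. Kit, which encodes the receptor used in the sort, had a UMI in 70.0% of cells in E16.5 replicate 1 and 64.5% in replicate 2, 44.0% (E18.5), 76.9% (P0) and 43.5% (adult). The E16.5 libraries differed in make-up: replicate 2 held 2141 cells under T and NK codes and replicate 1 held 18 and levels over all HP cells are taken over these different mixes. Libraries also shared cell barcodes, most often E16.5 replicate 1 with the adult (330 of its 560 cells) and E18.5 with the adult (375 cells). The cell with fewer UMIs of each shared barcode lay in the adult library in 644 cases (10.8% of its cells), at P0 in 219, at E18.5 in 88, and these cells made up 185 of 201 adult Mast4i cells, 208 of 274 P0 Mast4 cells and 332 of 701 adult MyP4 cells. Their part in the results was not tested, but tests and class values that rest on these clusters are given with and without such cells. Some codes did not match their leading genes (the 10 genes highest by fold against the rest of the library): HSPC1 at E16.5 was led by the antigen presentation genes Cd74, H2-Eb1 and H2-Aa, HSPC4 at P0 by the granule genes Prtn3 and Mpo, MyP3 at P0 by the neutrophil genes Camp, S100a8 and S100a9, adult Mono6 by H2-Aa and Cd74, and Neu1 of E16.5 replicate 2 by the progenitor granule genes Elane, Prtn3 and Mpo beside S100a8 and S100a9. DC2 at E18.5 was led by the osteoclast genes Ctsk and Acp5 with no dendritic marker among its leading genes. For this reason levels are compared by cluster, and no p-value is given between clusters, which were made from the same counts.

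Spi1 had UMIs in every one of the 81 sums of a library and cluster with at least 20 cells. Its level over all HP cells was 169 and 86.9 CPM in E16.5 replicates 1 and 2, then 161 (E18.5), 155 (P0) and 94.4 (adult), and over the 81 sums its level ranged from 2.62 to 698 CPM with a median of 139. The highest Spi1 level was in Mono1iii of E18.5, a cluster led by Ace, Fcgr4 and Treml4, at 698 CPM (95% Poisson interval 616 to 787, counting error only, as for all intervals here). Neu2 followed at 575 CPM (430 to 752) at P0 and 523 (455 to 598) at E18.5, and DC2 at 566 (523 to 611), and these 3 intervals overlapped, that of P0 Neu2 also with Mono1iii. Adult Neu3 was lower at 190 CPM. Spi1 was lowest in TCell6 of E16.5 replicate 2 (12 UMIs, 2.62 CPM) and adult erythroid progenitors EryP2 (4.34 CPM), while B-lymphoid codes lay between 31.4 and 61.4 CPM in the 5 libraries. In myeloid progenitors Spi1 was intermediate, at 212 CPM in MyP2 of E18.5, 241 in MyP2 of P0, 306 in MyP3 of P0 and 162 in adult MyP5.

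Cebpa, the factor of the granulocyte and monocyte path, was low over all HP cells at E16.5 (18.0 and 2.86 CPM) and stood at 38.8 CPM (E18.5), 32.1 (P0) and 32.5 (adult). Its highest levels were not in the MyP codes but in the eosinophil and basophil codes: 167 CPM (148 to 189) in adult Eos/Bas4 and 144 (128 to 163) in Bas1 of E18.5, whose intervals overlapped. Eos/Bas1 of E16.5 gave 174 CPM (132 to 225) from 18 cells of replicate 1 and 64.3 CPM from 79 cells of replicate 2, a spread of 2.71 times between libraries of 1 stage. In the progenitor clusters led by primary granule genes Cebpa was 60.4 CPM in MyP2 of E18.5, 66.6 in MyP2 of P0 and 70.7 in adult MyP5. It was lower in MyP1 of E18.5 (35.7), MyP4 of the adult (40.5 from 24 UMIs, 35.7 without the shallower cells of shared barcodes), MyP3 (46.3), Neu3 (16.7) and Neu2 (7.37 at E18.5). T cell and mast codes of E16.5 held 0 to 1.36 CPM in each cluster of at least 20 cells.

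Cebpb, a factor of mature and stimulated myeloid cells, ranged over 3.19 to 2159 CPM across clusters. The level over all HP cells was 138 and 65.0 CPM at E16.5, 161 (E18.5), 113 (P0) and 77.9 (adult). The top of its order was made up of E18.5 and P0 clusters: Mono1iii at 2159 CPM (2013 to 2313), Mono1iv at 1593 (1485 to 1706), Neu2 of P0 at 1139 (931 to 1378, from 28 cells), Bas1 at 857 (816 to 900) and Eos/Bas3 of P0 at 709 (647 to 775), and no neighbours among these 5 had overlapping intervals. Among adult clusters with a median of over 1000 UMIs per cell the most Cebpb was in Neu3 (153 CPM) and Mono4 (151 CPM). This order depended on the total used. With mitochondrial and ribosomal protein genes left out, the highest adult class moved from neutrophil to eosinophil and basophil codes.

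Cebpd, another factor of mature cells, was high in the Neu codes at every stage, some of which held few cells (28 in Neu2 of P0). MyP3 of P0, which was also led by neutrophil genes, had 107 CPM of Cebpd. In the Neu codes Cebpd stood at 192 CPM in Neu1 of E16.5 replicate 1 (2 cells), 202 (183 to 222) in replicate 2, 243 (198 to 296) in Neu2 of E18.5, 249 (158 to 374) in Neu2 of P0 and 230 (218 to 243) in adult Neu3, and each of these intervals overlapped that of the next. Outside the neutrophil codes the highest cluster with a median of over 1000 UMIs per cell was adult MyP5 at 123 CPM (116 to 131), against 47.4 CPM in MyP2 of P0 and 57.7 in MyP2 of E18.5. Cebpd over all HP cells was 26.1 and 9.22 CPM at E16.5, 24.4 (E18.5), 23.1 (P0) and 62.8 (adult).

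Cebpe, the factor of late granulocytes, had 0 UMIs in 17 of the 81 sums, more than any other of the 8, and a median of 3.02 CPM. Its highest level was in the P0 eosinophil progenitors EosP, a cluster led by the eosinophil granule genes Prg2 and Epx, at 640 CPM (604 to 678), and Cebpe was itself among the 10 leading genes there. Neu1 of E16.5 replicate 2 had 562 CPM (530 to 596), adult Neu3 404 (387 to 420), Neu2 of E18.5 324 (271 to 385), MyP3 of P0 299 (288 to 311), MyP2 of E18.5 207 (198 to 216) and MyP5 of the adult 172 (163 to 181). Among the clusters just named, Neu2 of E18.5 and MyP3 were the only neighbours whose intervals overlapped. Neu2 of P0, with 28 cells, was not placed in this order. MyP1 of E18.5, the progenitor cluster led by Cd34, had 5.38 CPM. Eosinophil and basophil clusters with the eosinophil genes Prg2 and Epx among their leading genes had 144 CPM (Eos/Bas2 of E18.5) and 103 CPM (adult Eos/Bas4) beside EosP. Those without them had less, with 0 and 0.931 CPM in Eos/Bas1 of E16.5, 5.90 in Bas1 of E18.5, 7.37 in Eos/Bas3 of P0 and 17.6 in Bas2 of P0. In the whole of the HP cells Cebpe was 6.01 and 12.2 CPM at E16.5, 49.4 (E18.5), 50.9 (P0) and 73.9 (adult).

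**Figure D1:**
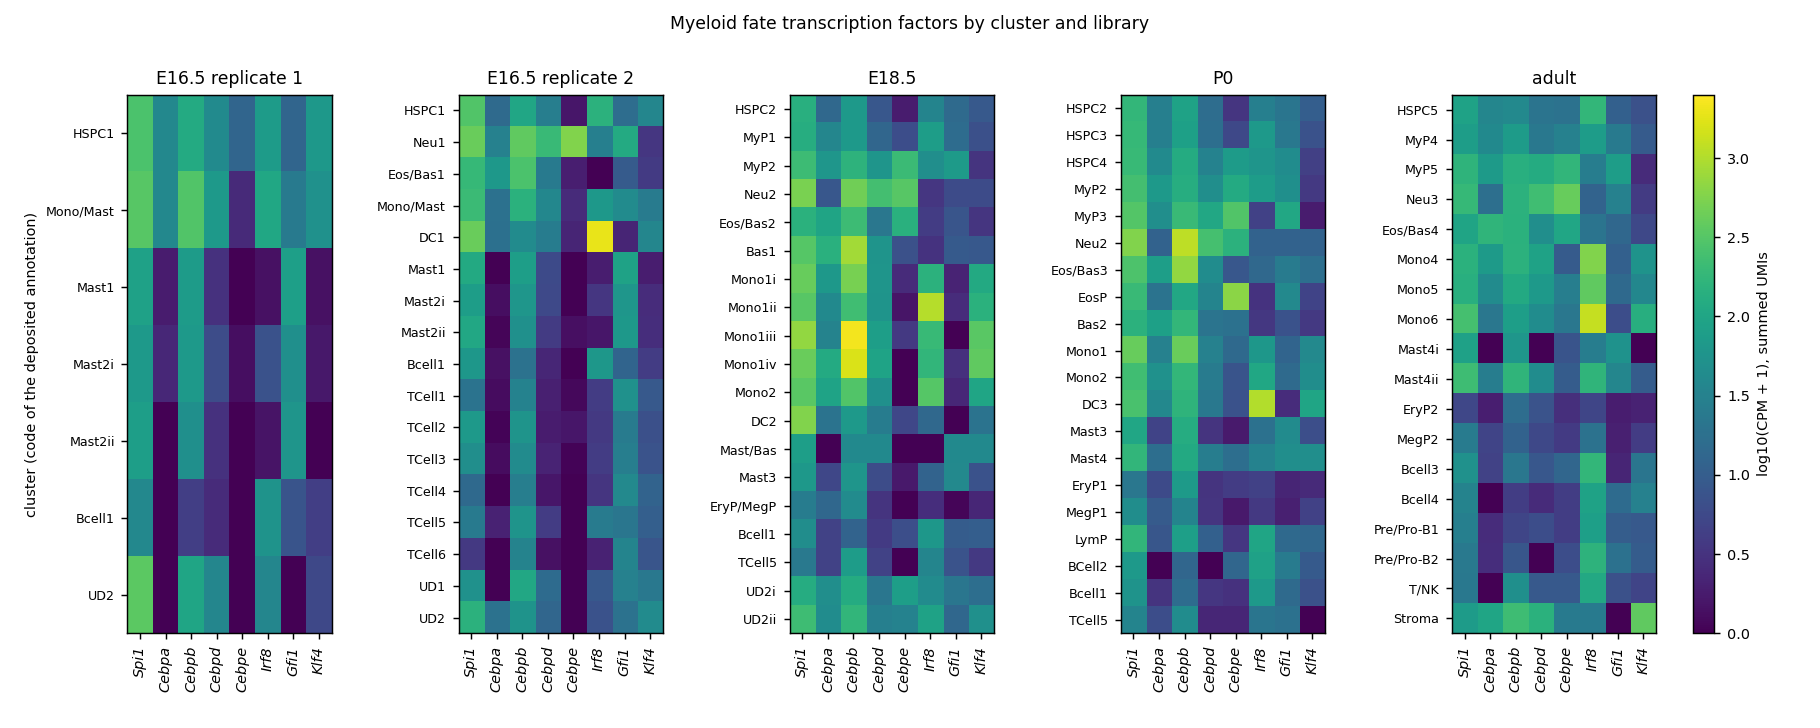
Level of the 8 factors (columns) in each cluster of at least 20 cells (rows) of the 5 libraries (panels), as the log10 of summed CPM plus 1. Bright cells mark Irf8 in DC1, Mono1ii, DC3 and Mono6, Cebpb in Mono1iii and Mono1iv, and Cebpe in neutrophil, EosP, MyP2, MyP3 and MyP5 rows, while T cell and mast rows of E16.5 are dark for Cebpa and Cebpe.

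Irf8, the monocyte and dendritic cell factor, had its highest levels in clusters with antigen presentation genes among their leading genes, but not in all such clusters. DC1 of E16.5 had 1769 CPM (1590 to 1963) in 9 cells of replicate 1 and 1922 (1827 to 2019) in 56 cells of replicate 2, a spread of 1.09 times. The Irf8 spread between the E16.5 libraries was 1.14 times in Bcell1, 1.16 in TCell5, 1.62 in Mono/Mast, 2.08 in HSPC1 and 2.51 in Mast2i. Adult Mono6 had 1252 CPM (1182 to 1326), Mono1ii of E18.5 1045 (998 to 1093) and DC3 of P0 1014 (956 to 1073), and the last pair could not be told apart by counting error. All 4 of these clusters listed H2-Aa and Cd74 among their leading genes, and in Mono1ii Pf4 and Mrc1 came first. HSPC1 of E16.5 listed H2-Aa and Cd74 too, but had 73.1 and 152 CPM of Irf8 in replicates 1 and 2. DC2 of E18.5, the cluster with osteoclast genes, had 12.9 CPM of Irf8 (15 UMIs in 43 cells). The other monocyte clusters spread widely, with 576 CPM (556 to 596) in adult Mono4 and 372 (358 to 386) in Mono5, both of which had Irf8 among their leading genes, 315 in Mono2 of E18.5, 153 in Mono1i, and 62.3 in Mono1 and 105 in Mono2 of P0. Granulocyte clusters held less Irf8. It was 28.5 CPM (58 UMIs) in Neu1 of E16.5 replicate 2, near the 26.5 of adult MyP5. It was 19.5 CPM in adult Eos/Bas4, 11.0 in adult Neu3, 2.16 in EosP of P0 and 0 UMIs in Eos/Bas1 of either E16.5 library.

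Among progenitors Irf8 stood in different orders at different stages. HSPC5 of the adult had 176 CPM (165 to 188), above adult MyP5 at 26.5 (23.1 to 30.3), whereas at P0 HSPC2 had 28.6 (25.5 to 32.1), HSPC3 65.4 (61.5 to 69.5) and MyP2 75.7 (71.6 to 80.0). MyP3 of P0 had 3.49 CPM (29 UMIs in 355 cells). The Irf8 level over all HP cells was 63.9 and 28.5 CPM at E16.5, 72.2 (E18.5), 44.8 (P0) and 156 (adult).

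Klf4, the monocyte factor that works with Irf8, was highest in monocyte clusters of E18.5, in a different order from Irf8. Among classes of at least 20 cells, its highest level was in monocyte codes at E18.5 and in the adult, and in dendritic codes at P0. It was in HSPC codes in E16.5 replicate 1. In replicate 2 dendritic and HSPC codes were nearly equal, at 35.6 and 35.3 CPM. Its highest levels were in Mono1iv of E18.5 at 369 CPM (318 to 426) and in Mono1iii at 337 (281 to 401), whose intervals overlapped. Mono1iv was led by Fcna and Fn1 and also listed the macrophage genes Lyve1, Folr2 and Timd4, so its code may not name its cells. Both clusters had less Irf8 (171 and 196 CPM) than Mono1ii, which had 147 CPM of Klf4. Mono6 of the adult had 135 CPM (112 to 160) of Klf4, DC3 of P0 98.1 and DC1 of E16.5 replicate 2 35.6. MyP and neutrophil clusters of at least 1000 UMIs per cell held 0.842 to 10.8 CPM. A level of 366 CPM in the adult cells coded Stroma rested on 15 UMIs in 56 cells with a median of 555 UMIs per cell. Klf4 over all HP cells was 18.9 and 7.15 CPM at E16.5, 19.3 (E18.5), 6.78 (P0) and 15.0 (adult).

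Gfi1, the neutrophil side repressor, was highest in Neu1 of E16.5 replicate 2 at 120 CPM (105 to 136) and in MyP3 of P0 at 107 (101 to 115), and these intervals overlapped. Next came mast cells, not granulocytes: Mast1 of E16.5 had 89.9 CPM (84.8 to 95.2) in replicate 2 and 83.1 (72.1 to 95.3) in replicate 1, followed by MyP5 of the adult at 76.8 (70.9 to 83.0) and MyP2 of E18.5 at 70.7 (65.6 to 76.0). The later neutrophil clusters had less, with 29.7 CPM (25.5 to 34.5) in adult Neu3 and 2 UMIs and 1 UMI in Neu2 of E18.5 and P0. Gfi1 was also present in T cells, at 51.5 CPM (47.3 to 56.0) in TCell1 of E16.5 replicate 2, which was led by Rag1 and Ptcra. Over all HP cells it was 42.6 and 47.6 CPM at E16.5, 20.1 (E18.5), 24.4 (P0) and 19.2 (adult).

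**Figure D2:**
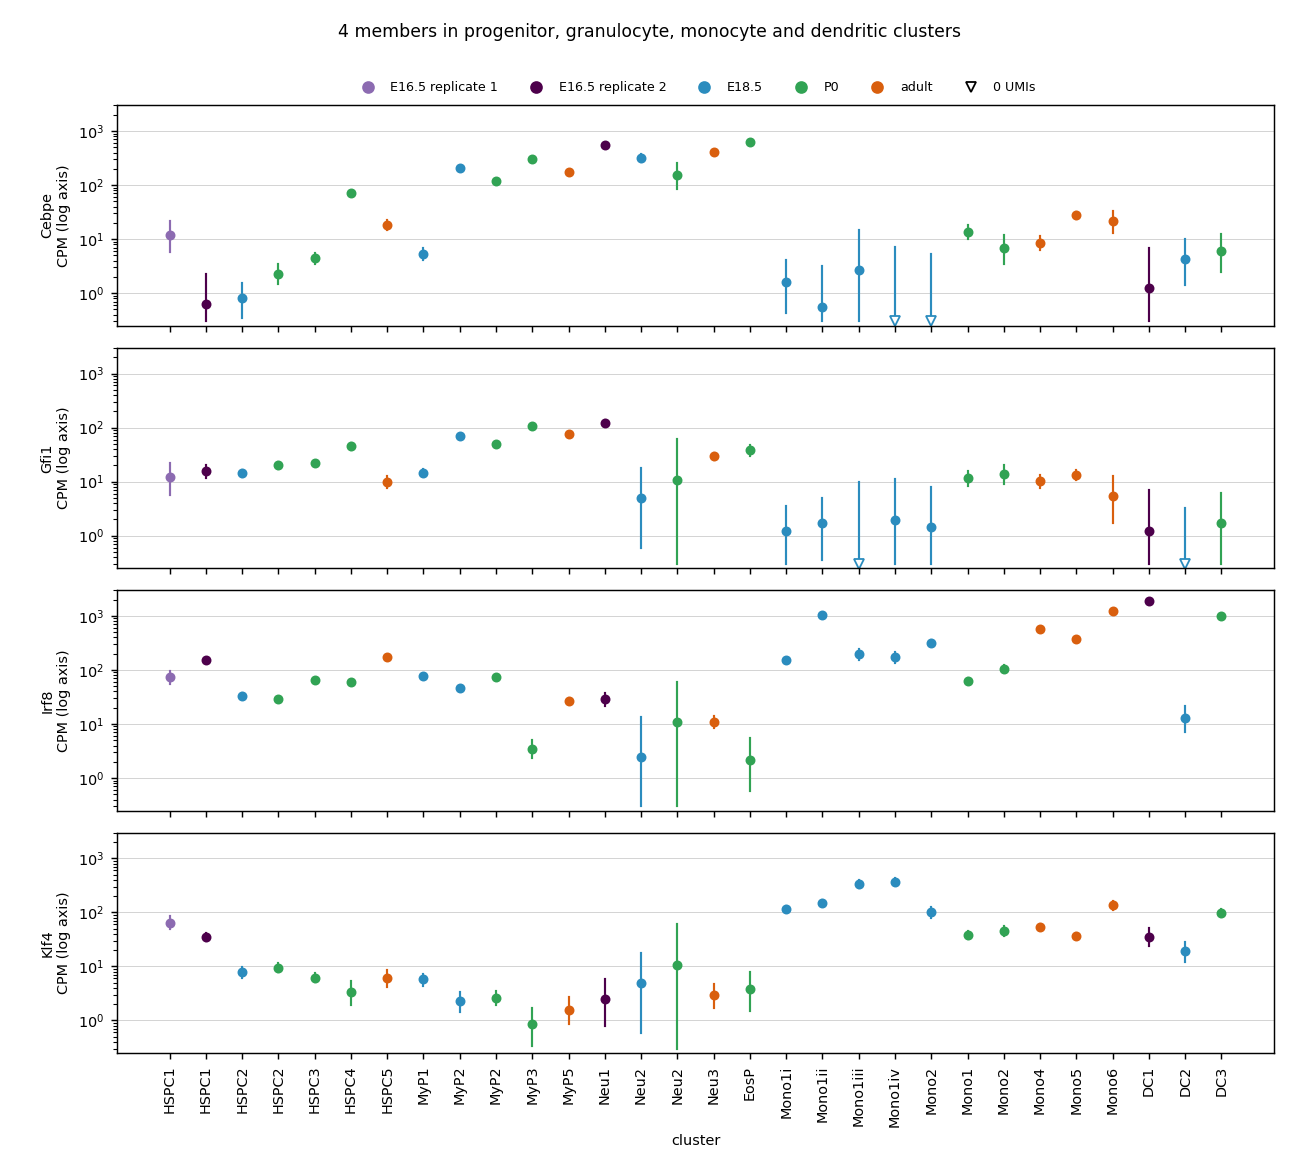
Levels of Cebpe, Gfi1, Irf8 and Klf4 (CPM, log axis) in 30 progenitor, granulocyte, monocyte and dendritic clusters, coloured by library, with 95% Poisson intervals as lines drawn down to 0.3 CPM. Cebpe exceeds 100 CPM in the neutrophil clusters and in MyP2, MyP3, MyP5 and EosP and stays under 30 CPM in monocyte and dendritic clusters, where Irf8 is above 60 CPM except in DC2.

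To ask whether the factors changed after E16.5, UMIs were summed per library and the 2 E16.5 libraries were set against the 3 later ones, which are single libraries of 3 stages and not replicates of 1 stage. Over all HP cells edgeR's quasi-likelihood test with Benjamini-Hochberg adjustment called 210 of 15093 genes (1.39%) and 0 of the 8 factors, with 0.358% of genes higher and 1.03% lower later. DESeq2 called 2 factors, Cebpe and Gfi1, and 13.4% of all genes. In edgeR 3248 genes had an unadjusted p under 0.05. The closest factors were Cebpe, with a log2 difference of 2.64 (SE 0.45), higher in 3 of 3 later libraries than in both E16.5 libraries (adjusted p = 0.0546 by edgeR), and Gfi1, with a log2 difference of -1.12 (SE 0.20), lower in 3 of 3 (adjusted p = 0.0599 by edgeR). Cebpe passed with no filter on low counts (adjusted p = 0.0399 by edgeR), and without E16.5 replicate 1 Cebpa passed (adjusted p = 0.0273 by edgeR). Of the related genes 2 of 4 primary granule genes rose over all HP cells, Mpo with a log2 difference of 3.81 and Ctsg with 3.05, and without the shallower cells of shared barcodes the differences were again 3.81 and 3.05, with adjusted p just past the threshold (0.0553 and 0.0581 by edgeR). Of the 20 other fate factors, 10 receptors and surface genes, 5 secondary granule genes and 5 monocyte and dendritic genes 0 passed there. The cell make-up also differed between the 2 sides. Both E16.5 libraries held 0 cells under myeloid progenitor codes, against 487 (E18.5), 1004 (P0) and 1203 (adult). Mast codes held 259 and 1804 cells at E16.5, then 203 (E18.5), 534 (P0) and 321 (adult). The part of this make-up in the differences over all HP cells was not tested. In granulocyte codes 1 of 11292 genes was called (0.00886%), 551 had an unadjusted p under 0.05, DESeq2 called 55 (0.487%), and 0 of 8 factors passed with either tool. The 2 E16.5 granulocyte sums were of different make-up there, with 18 Eos/Bas1 and 2 Neu1 cells in replicate 1 and 79 and 72 in replicate 2.

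In clusters coded HSPC, Klf4 was lower after E16.5. It stood at 64.7 and 35.3 CPM in the 2 E16.5 libraries, 7.78 (E18.5), 6.86 (P0) and 6.06 (adult), without overlap between the groups. The log2 difference was -2.71 (SE 0.30, adjusted p = 0.00294 by edgeR's quasi-likelihood test with Benjamini-Hochberg adjustment over 11444 genes, of which 4.08% were called and 3.31% were lower later). Klf4 was the 1 factor called of 8 there, and the call held in each of the 10 alternatives, with adjusted p from 7.85e-11 (DESeq2) to 0.0259 (edgeR without E16.5 replicate 1). DESeq2, which called 7.40% of genes there, also called Spi1 (adjusted p = 0.021), which edgeR did not (adjusted p = 0.111), with 273 and 299 CPM at E16.5 and 141, 185 and 89.7 CPM later. This test compared codes and not a single cell type, since the E16.5 sum is HSPC1. The 6 dendritic markers, all above 0 in each library, summed to 15076 CPM in E16.5 replicate 1, 4935 in E16.5 replicate 2, 155 (E18.5), 118 (P0) and 203 (adult). The 7 HSPC markers summed to 283, 288, 666, 589 and 543 CPM in the same order of E16.5 replicate 1, E16.5 replicate 2, E18.5, P0 and adult. Of the listed monocyte and dendritic genes 4 of 5 fell with Klf4 (Cd74, Naaa, Ccr2 and Cx3cr1). Of the receptors and surface genes 4 of 9 tested fell (Csf1r, Csf2ra, Itgam and Ly86). Of the other fate factors 3 of 20 fell, namely Batf3 with a log2 difference of -6.63, Id2 with -4.89 and Irf5 with -2.56, while 0 of 4 primary granule genes passed in either direction. The part of this difference in the fall of Klf4 was not tested.

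In mast codes 4 of the 7 factors tested were called, 3 higher and 1 lower later, against 656 of 10587 genes (6.20%, with 3.95% higher and 2.25% lower). The filter on low counts works by group of libraries. Irf8, Cebpa and Klf4, the 3 called higher, were low at E16.5 and needed the later libraries to pass it. The count of 4 of 7 thus holds factors that entered because they were higher later. With no such filter 5 of 8 factors and 1669 of 17098 genes were called. Irf8 rose from 2.71 and 1.35 CPM at E16.5 to 10.9 (E18.5), 18.2 (P0) and 87.4 (adult), a log2 difference of 3.53 (SE 0.77, adjusted p = 0.0257 by edgeR). Cebpa rose from 0.814 and 0.153 CPM to 4.26, 4.38 and 11.4 on 6, 5, 18, 18 and 3 UMIs, a log2 difference of 3.61 (SE 0.85, adjusted p = 0.0325 by edgeR). Klf4 rose from 0.407 and 1.41 to 6.39, 7.54 and 3.80 CPM, a log2 difference of 2.50 (SE 0.56, adjusted p = 0.0287 by edgeR). Gfi1 fell, from 62.4 and 73.0 CPM at E16.5 to 38.8, 43.3 and 45.6 CPM, by 0.86 on the log2 scale (SE 0.22, adjusted p = 0.0432 by edgeR). Later values of each of the 4 lay on 1 side of both E16.5 values. For Klf4 the adult value was 1 UMI, and that of E16.5 replicate 1 came from 1, 2 and 0 UMIs in Mast1, Mast2i and Mast2ii. Without the shallower cells of shared barcodes the adult had 0 UMIs of Klf4, below both E16.5 values. The adult sum was small, at 263064 UMIs in 321 cells, of which 60 remained without the shallower cells of shared barcodes. Without such cells all 4 calls remained, while the adult levels became 163 CPM of Irf8 (12 UMIs), 27.2 of Cebpa (2 UMIs), 13.6 of Gfi1 (1 UMI) and 0 UMIs of Klf4. Without E16.5 replicate 2 all 4 were lost (adjusted p from 0.115 to 0.366 by edgeR), Klf4 and Gfi1 were also lost without E16.5 replicate 1, E18.5 or P0, Cebpa without E18.5 or P0, and Gfi1 under DESeq2 (adjusted p = 0.0744, with 4.27% of genes called).

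Markers of other cell types moved with these mast sums. The 6 mast markers fell from 55923 CPM in E16.5 replicate 1 and 70657 in E16.5 replicate 2 to 19027 (E18.5), 27987 (P0) and 36371 (adult). The 6 macrophage markers stood at 102, 18.1, 321, 261 and 2843 CPM and the 6 neutrophil markers at 0.679, 5.29, 20.1, 47.7 and 3193 CPM in E16.5 replicate 1, E16.5 replicate 2, E18.5, P0 and adult. Without the shallower cells of shared barcodes the adult sums were 19552 CPM of mast, 4218 of macrophage and 4436 of neutrophil markers. Adult Mast4ii was led by C1qb, C1qc and C1qa beside the mast proteases. Primary granule genes of myeloid progenitors rose too (Mpo, Elane and Prtn3, 3 of 4 tested), as did Gfi1b, Klf6, Runx1 and Tcf4 among 16 other fate factors tested. Of the monocyte and dendritic genes 2 of 5 rose, the chemokine receptor gene Ccr2 with a log2 difference of 2.44 and Ly6c2 with 7.63, and of the receptors and surface genes 1 of 9, the integrin gene Itgam with 2.95. Each of these calls held without the shallower cells. The part of RNA of other cell types in the rise of Irf8, Cebpa and Klf4 and in the fall of Gfi1 was not tested. In Mast3 alone, with 162 cells at E18.5 and 260 at P0 of which 1 and 0 were such shallower cells, Irf8 was 10.9 and 17.6 CPM, Cebpa 4.28 and 3.83, Klf4 6.19 and 5.61, and Gfi1 38.8 and 43.1.

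**Figure D3:**
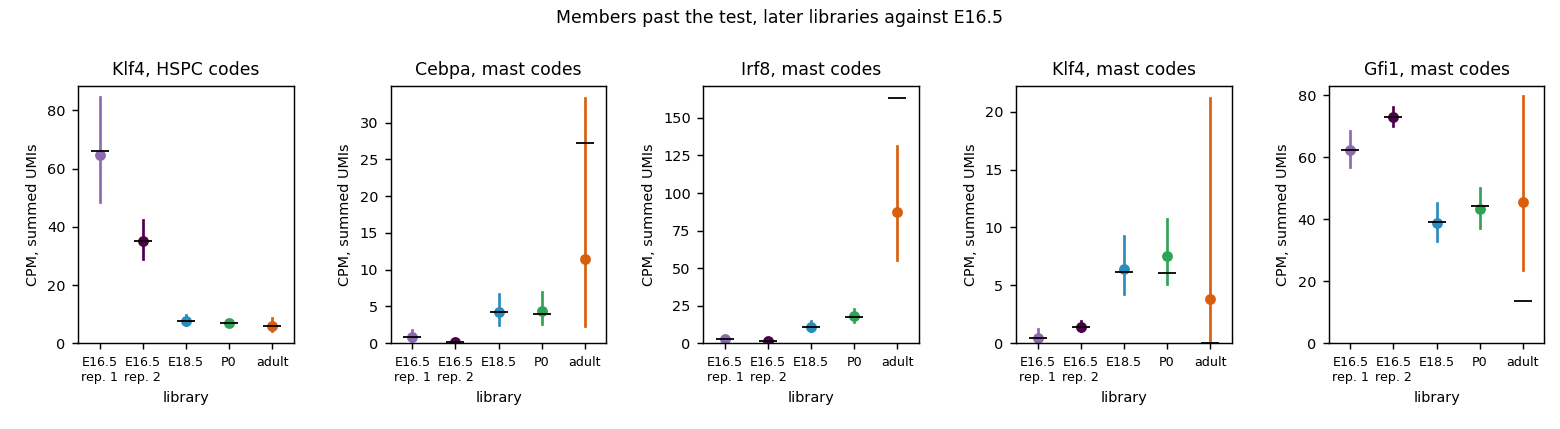
Level (CPM, linear axis from 0) of the 5 called combinations of a factor and a group of codes in the 5 libraries, with 95% Poisson intervals as lines and black dashes for the level without the shallower cells of shared barcodes. Klf4 in HSPC codes is above 35 CPM in both E16.5 libraries and under 8 CPM in the others, and the adult mast values move with the shared barcodes, to 163 CPM for Irf8.

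The adult and the newborn marrow had 1 library each, so their differences carry no test. A gene was counted as differing at 2-fold or more with at least 50 UMIs in 1 of the libraries. Comparisons by class were planned, and those between pairs of clusters were not. MyP2 of P0 and MyP5 of the adult were paired after their values were seen, and both listed Prtn3, Ctsg and Mpo among their leading genes. MyP2 also listed the monocyte marker F13a1, and MyP5 the granule gene Elane, so the pair was not of 1 make-up. Between them 12.8% of 9638 genes differed and so did 2 of 7 factors counted. Cebpd was 47.4 CPM at P0 and 123 in the adult, 2.59 times higher (2.36 to 2.85). Irf8 was 75.7 and 26.5 CPM, 2.86 times lower, and Spi1 (241 and 162), Cebpa (66.6 and 70.7), Cebpb (132 and 138), Cebpe (118 and 172) and Gfi1 (49.0 and 76.8) moved less than 2-fold. Between MyP2 of E18.5 and MyP2 of P0, where 3.00% of genes differed, 0 of 7 factors did. Irf8 went from 46.3 to 75.7 CPM and Cebpe from 207 to 118. MyP2 of E18.5 listed Elane, Fcnb and Stfa1 among its leading genes, which at P0 MyP3 listed and MyP2 did not. The part of this make-up in these values was not tested.

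The HSPC codes of P0 and the adult differed in the opposite direction for Irf8. HSPC5 of the adult had 6.16 times the Irf8 of HSPC2 of P0 (5.40 to 7.04) and 2.70 times that of HSPC3 (2.47 to 2.95). Both P0 clusters, like HSPC5, listed Hlf and Adgrl4 among their leading genes. HSPC5 also listed Flt3 and Dntt, of which HSPC3 listed Flt3 alone and HSPC2 listed neither. P0 also had 388 cells in a separate lymphoid progenitor code, and the adult had 0. The part of this make-up in the Irf8 ratios was not tested. In the 2 pairings 10.8% and 12.3% of genes differed, and 4 and 5 of the 8 factors. Gfi1 was 20.1 and 21.7 CPM in HSPC2 and HSPC3 and 9.91 in HSPC5, Cebpb 89.7, 83.6 and 39.3, Spi1 178, 187 and 89.7 (1.98 and 2.09 times lower in HSPC5), and Cebpe 2.31, 4.40 and 18.4. Klf4 was at 9.51, 6.22 and 6.06 CPM in the same order. With mitochondrial and ribosomal protein genes left out of the total, Irf8 and Cebpe remained past 2-fold in both pairings, but Gfi1 had log2 ratios of -0.76 (HSPC2) and -0.82 (HSPC3), Cebpb of -0.93 and -0.78, and Spi1 of -0.75 in HSPC3, all short of 2-fold. With that total 8.61% and 9.87% of genes differed. With all HSPC codes summed, where 11.2% of genes differed, 4 of 8 factors did. With those genes out of the total 2 of 8 factors and 8.71% of genes did, and Spi1 had a log2 ratio of -0.75 and Cebpb of -0.93. Cebpe was not among the 4 (14.5 and 18.4 CPM), while HSPC4 of P0 alone had 71.7 CPM. Between HSPC2 of E18.5 and HSPC2 of P0, where 3.80% of genes differed, Cebpa (13.0 and 28.4 CPM) and Cebpd (7.48 and 15.5 CPM) were higher at P0, 2 of 7 factors counted.

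Along the neutrophil codes, MyP3 of P0 and Neu3 of the adult differed in 40.5% of genes and in 4 of 7 factors counted. Both listed Ngp, Camp, S100a8 and S100a9 among their leading genes. MyP3 also listed the primary granule gene Elane, and Neu3 the secondary granule genes Ltf and Lcn2, so the pair was not of 1 make-up. Gfi1 was 3.61 times lower in Neu3 (107 and 29.7 CPM) and Cebpa 2.78 times lower (46.3 and 16.7). Cebpd was 2.15 times higher (107 and 230), and Irf8 was 3.15 times higher but low in both (3.49 and 11.0 CPM). With mitochondrial and ribosomal protein genes left out of the total, 48.8% of genes and 3 of 7 factors differed, and Cebpd fell short of 2-fold. From Neu1 of E16.5 replicate 2, which unlike Neu3 had Elane, Prtn3 and Mpo among its leading genes, to Neu3, where 40.0% of genes differed, Spi1, Cebpb, Irf8 and Gfi1 were 2.18, 2.43, 2.59 and 4.03 times lower and Cebpd (202 and 230 CPM) and Cebpe (562 and 404) moved less than 2-fold. DC3 of P0 and adult Mono6 differed in 15.4% of genes and in 1 of 4 factors counted, Cebpb (160 and 79.1 CPM, 2.02 times lower and under 2-fold without the shallower cells of shared barcodes), with Irf8 at 1014 and 1252 and Klf4 at 98.1 and 135 CPM. From DC1 of E16.5 replicate 2 to DC3, where 10.5% of genes differed, Cebpb was 3.72 times higher in DC3 (43.0 and 160 CPM) and Klf4 2.75 times (35.6 and 98.1), 2 of 4 factors counted.

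Summed by class rather than by cluster, the adult and P0 libraries differed in 8.48% of genes and 0 of 8 factors for myeloid progenitors (also 0 of 8 without the shallower cells of shared barcodes), in 38.0% and 4 of 8 for granulocytes (Cebpd, Cebpe, Irf8 and Gfi1 higher) and in 20.3% and 4 of 8 for monocyte and dendritic codes (Spi1 and Cebpb lower, Cebpd and Irf8 higher). The granulocytes were mostly Bas2 cells at P0 (520 of 738) and mostly Neu3 cells in the adult (528 of 704), so that the class values compare different clusters. The same holds for the monocyte and dendritic codes, which at P0 were 225 Mono1 cells led by the osteoclast genes Ctsk and Acp5, 114 Mono2 cells with C1q genes among the leading ones and 94 DC3 cells, and in the adult Mono4, Mono5 and Mono6. For myeloid progenitors the adult class held 701 MyP4 cells with a median of 570 UMIs.

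**Figure D4:**
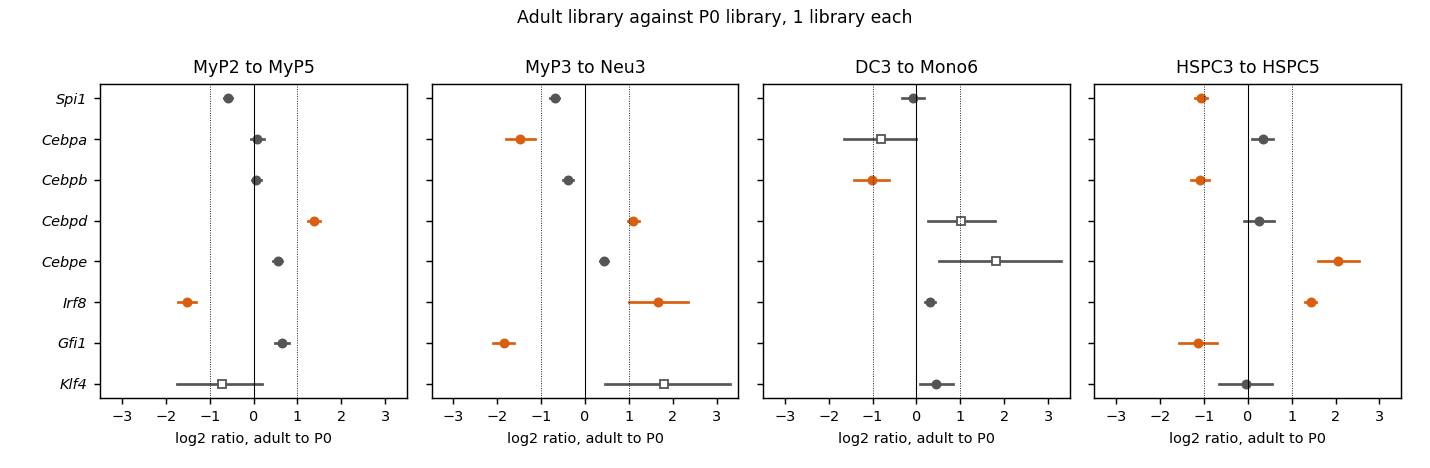
Log2 ratio of the adult library to the P0 library for the 8 factors in 4 pairs of clusters, with 95% intervals from the UMI counts as lines. Orange marks a ratio of 2-fold or more with at least 50 UMIs, open squares mark factors with fewer UMIs, Gfi1 is left out of DC3 to Mono6 for having under 10 UMIs, and Irf8 lies left of 0 for MyP2 to MyP5 and right of 0 in the other panels.

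Irf8 and Gfi1 act against each other, so their UMIs were looked for in the same cells, each thinned to 2000 UMIs so that depth was equal. Over the myeloid progenitor, granulocyte, monocyte and dendritic and HSPC codes of all libraries, 27 of 8671 cells (0.311%) held UMIs of both, and the product of the 2 shares within each group of cells would give 43.8. These groups pool unlike clusters, such as MyP2 and MyP3 of P0 with Irf8 in 91 and 2 cells, and the values by cluster follow. In MyP2 of P0, where Irf8 was found in 91 and Gfi1 in 64 of 649 cells, 6 held both beside a product of 8.97. In adult Mono4, the cluster with the most such cells, 8 held both, beside 8.36, and HSPC2 of P0 (2 cells, beside 1.30) and Mono2 of P0 (2, beside 1.49) lay above their products. In MyP5 of the adult 2 of 501 cells held both, beside 4.11, and in MyP2 of E18.5 0 of 223 (with the limit set at 3 cells, a count of 0 allows a share of up to 1.35%), beside 2.02. For comparison, the thinned Irf8 share in erythroid and megakaryocyte codes was 0.524% of cells at P0 and 1.26% in the adult. The Gfi1 share there was at most 0.262%, but the adult T and NK cells had Irf8 in 11.9% of 84 cells. The source of these UMIs was not tested.

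Cebpe and Irf8 shared fewer cells than their product in the same progenitors. Among MyP2 cells of P0 118 held Cebpe, 91 Irf8 and 6 both, beside a product of 16.5. In MyP2 of E18.5 the counts were 77, 11 and 0, beside 3.80, and in MyP5 of the adult 144, 29 and 5, beside 8.34. For Cebpa and Irf8 the counts lay near the product in some clusters and not in others. Both were held by 9 cells of MyP2 of P0, beside 10.4, 53 cells of adult Mono4, beside 52.2, and 4 cells of adult HSPC5, beside 8.15. These counts are small, and products assume cells of 1 kind within a cluster, so they stand as a description with no test.

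The antibody tags were counted apart from the genes, but the HSPC codes within which cells were split came from the gene counts. At P0 these codes pooled HSPC4 with HSPC2 and HSPC3, which had 28.6 and 65.4 CPM of Irf8, and no split by single code is given. CD135, the Flt3 receptor of early lymphoid and dendritic progenitors, was counted in every library, and cells were split at a centred log ratio of 1. Within HSPC codes of E18.5, Irf8 was 58.4 CPM (50.5 to 67.1) in 125 CD135 high cells and 20.7 (17.4 to 24.5) in 263 others, a ratio of 2.82. At P0 it was 67.6 (60.5 to 75.3) and 49.4 (46.7 to 52.1), a ratio of 1.37, and in the adult 286 (264 to 310) and 107 (96.3 to 119), a ratio of 2.67. Irf8 was thus higher in the CD135 high cells in 3 of 3 libraries. Cebpa was lower in them in 3 of 3 libraries, at 6.75 and 16.2 CPM at E18.5, 19.7 and 32.4 at P0, and 20.9 and 44.9 in the adult. Cebpe was likewise lower at P0 (5.95 and 16.1) and in the adult (5.70 and 26.3), while Spi1 differed by 1.12 times at most. At P0, HSPC4 held 360 of the 454 Cebpe UMIs of the HSPC codes. Without HSPC4, an alternative added after seeing the data, Cebpe there was 1.52 and 3.93 CPM, on 6 and 88 UMIs, Cebpa 16.7 and 30.4 CPM and Irf8 62.9 and 48.7 CPM. Median UMIs per cell were higher in CD135 high cells, with 26808 against 23608 at E18.5, 20345 against 18498 at P0, and 8147 against 7276 among adult cells.

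**Figure D5:**
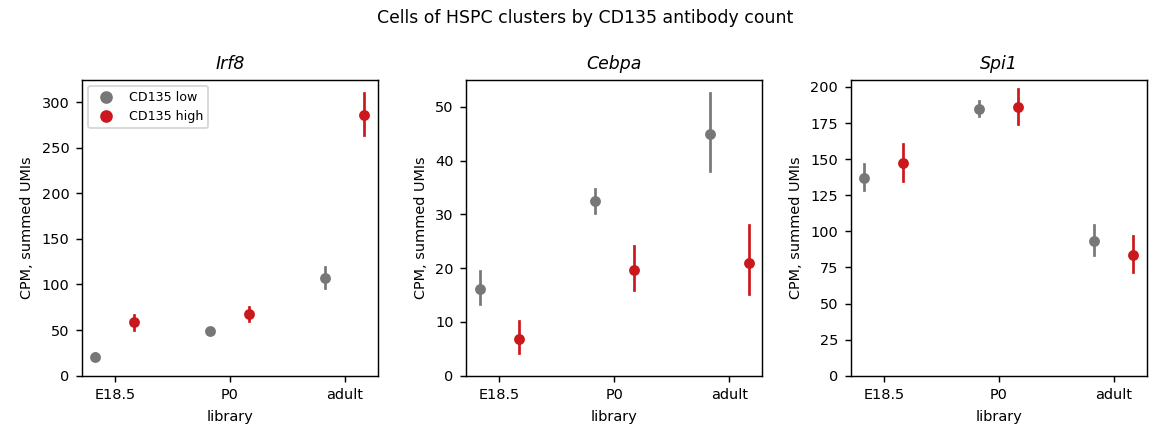
Levels of Irf8, Cebpa and Spi1 (CPM, axis from 0) in cells of HSPC codes with a CD135 centred log ratio above 1 (red) and in the others (grey), in the 3 libraries with enough cells in both, with 95% Poisson intervals. The red Irf8 points lie above the grey ones and the red Cebpa points below, while Spi1 intervals overlap in each library.

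Tags for CD16/32, CD34, CD115 and Ly6C had counts in E16.5 replicate 2 only. There, CD115 (the receptor for the monocyte growth factor, encoded by Csf1r) marked 25 cells of HSPC1 with 391 CPM of Irf8 and 402 of Spi1, and the other 140 cells had 115 and 283 CPM. Among all HP cells of that library CD115 high cells had 102 CPM of Irf8 against 22.8, and Ly6C high cells had 99.9 CPM of Cebpe against 6.05. Within Neu1 the 40 Ly6C high and 32 other cells had the same Cebpe (563 and 561 CPM) but 47.3 and 6.42 CPM of Irf8, from 52 and 6 UMIs. Cells high for CD16/32, the Fc receptor of granulocyte and monocyte progenitors, had 71.2 CPM of Gfi1 against 31.5 and 9.44 of Irf8 against 41.6, but 1705 of these 2005 cells were mast cells.

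Finally, the genes whose levels ran most like each factor were listed over the 81 sums, by Pearson's r of log2(CPM + 10) among 4741 genes that reached 100 CPM, as a description across clusters that share libraries and depth. Spi1 ran with Nfam1 (r = 0.86), Gsdmd and Skap2, Cebpa with the glycolytic enzyme Hk2 (0.82), the chemokine Ccl9 and Anxa3, and Cebpb with the small Maf factor Mafg (0.84), Naip2 and Rnf130. Cebpd ran with Igsf6 (0.91), Mtus1 and the NADPH oxidase subunit Ncf1, and Cebpe with Gca (0.88), 1700020L24Rik and Ms4a3, a gene of granulocyte and monocyte progenitors. For Irf8 the list was Pkib (0.86), Cd180 and Tifab, for Gfi1 the neutrophil protease inhibitor Serpinb1a (0.80), Pde4d and Cmtm7, and for Klf4 Cd302 (0.83), Psap and the receptor Lifr. Without the clusters under 1000 UMIs per cell the first gene stayed first for Cebpa, Cebpd, Cebpe, Irf8 and Gfi1, and Spi1 was led by Gsdmd, Cebpb by Naip2 and Klf4 by Psap.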

How the data were processed

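The matrix holds raw UMI counts per gene and cell, which the authors made with Cell Ranger 3.1.0 on mm10 (per the submitters' processing notes and the study's methods) and deposited after filtering in R 4.0 with Seurat 3.1.5. They kept genes found in at least 30 cells, and removed as putative doublets the cells from percentile 98 upward in genes or in UMIs, together with cells of at least 7.5% mitochondrial UMIs or of under 300 UMIs. No further cell filter or doublet caller was applied here. Cells were assigned to libraries, codes and cell kind by the deposited annotation, and 13 of its 18 columns were not used. The antibody counts that the authors deposited were turned into a centred log ratio per library.

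Counts were summed per library and code and divided by the summed total. Poisson intervals (95%) and exact Clopper-Pearson intervals cover counting error only. Summed counts were tested with edgeR 4.0.16 (quasi-likelihood test, Benjamini-Hochberg threshold 0.05), with DESeq2 1.42.0 as an alternative, for sums with at least 10 cells in each library. Monocyte and dendritic codes were not tested, since E16.5 replicate 1 held 9 such cells. In simulated counts with 3 residual degrees of freedom, 52% (all HP cells), 100% (mast), 35% (granulocyte) and 97% (HSPC) of 100 genes changed 4-fold were recovered. Unchanged genes gave 10, 14, 6 and 13 false calls in the same order. Only genes with an expected count above a minimum in the smallest sum were changed. Recovery at the lower counts of Cebpa, Irf8 and Klf4 in mast codes was therefore not simulated. The study states that the scRNA-Seq was not repeated, so p-values measure only the spread between these samples. The text names the 8 factors, the members of 5 lists of related genes that passed a test, and the 3 genes most alike to each factor. The members and lists were chosen with earlier results of these data known. Sequences and positions are from RefSeq (GRCm38.p6), and coordinates come from that annotation and not from the matrix.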

Additional observations from a re-analysis of the deposited data

Results flagged for a closer look

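Irf8 differed between the adult and P0 libraries in opposite directions in different cells. The log2 ratio of adult to P0 was -1.52 from MyP2 to MyP5, and it was 1.66 from MyP3 to Neu3, 2.62 from HSPC2 to HSPC5 and 1.43 from HSPC3 to HSPC5. By class it was 2.06 in granulocyte codes, 1.05 in monocyte and dendritic codes and 1.76 in HSPC codes, and it was -0.80, short of 2-fold, in myeloid progenitor codes. Gfi1 had a log2 ratio of 1.22 in granulocyte codes and of -1.33 in HSPC codes, and of -1.85 from MyP3 to Neu3, -1.02 from HSPC2 to HSPC5 and -1.13 from HSPC3 to HSPC5. These were singled out because the direction differed between groups of cells. Comparisons by class were planned and those between pairs of clusters were not. By class, Irf8 was not past 2-fold lower in the adult in any group. Its fall past 2-fold rests on MyP2 and MyP5, which were paired after their values were seen and were not of 1 make-up by their leading genes. The granulocyte codes were mostly Bas2 cells at P0 and mostly Neu3 cells in the adult. The monocyte and dendritic codes also held different clusters in the 2 libraries. With 1 library at each stage, the difference between the groups of cells was not tested.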

How the results depend on the processing

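No paired analysis was possible because only E16.5 has replicate numbers among the HP libraries. Counts of genes called between E16.5 and the later libraries moved by over 1.5 times under several settings. Over all HP cells the count of 210 became 2027 with DESeq2, 320 with no filter on low counts, 130 in cells of at least 1000 UMIs, 134 without the shallower cells of shared barcodes (a setting chosen after seeing the data), and 0 to 100 with 1 library left out, 0 without E16.5 replicate 2 and 2 without P0. In mast codes 656 became 1669 with no filter, 1187 in cells of at least 1000 UMIs, 1199 without the shallower cells, and 29 to 1606 with 1 library left out, with 29 without E16.5 replicate 2 and 1606 without the adult. In granulocyte codes 1 became 55 with DESeq2, 7 with no filter and 0 to 10 with 1 library left out. In HSPC codes 467 became 847 with DESeq2, 996 with no filter and 113 to 567 with 1 library left out. The share of cells with both Irf8 and Gfi1, 0.311% at 2000 UMIs, was 0.0340% at 1000 UMIs and 7.49% with no thinning. Causes were not tested. Of the factors' log2 differences 292 kept their side of the threshold, 13 lost and 5 gained a call, and none that was called changed sign. Of 368 levels by class, 233 left their counting interval when mitochondrial and ribosomal protein genes were left out of the total, 110 as means over cells, and 5 without the shallower cells. With mitochondrial and ribosomal protein genes left out of the total, the ratio of Spi1 between adult and P0 monocyte and dendritic codes fell short of 2-fold (log2 -0.92) and that of Cebpe passed it (1.11), while Cebpd from MyP3 to Neu3 (0.82) and Cebpb from DC3 to Mono6 (-0.83) fell short. Depth limits the adult library, where 668 myeloid progenitor cells had under 2000 UMIs and could not be thinned.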
